A study of Mus musculus with 4 samples.

Results

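The mitochondrial ribosome, or mitoribosome, makes the few proteins that mitochondrial DNA encodes, all of them subunits of the respiratory chain or ATP synthase. It has a small subunit, which reads the message, and a large subunit, which joins the amino acids. Its RNAs come from mitochondrial DNA, while its proteins come from nuclear genes, are made in the cytosol and are imported. Part of these proteins descend from bacterial ribosomal proteins, and part are found in mitochondria alone. Neurons rely heavily on respiration.

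The genes described here are those with mouse symbols starting in Mrpl (large subunit) or Mrps (small subunit) followed by a number, found through the transcript accession of each array probe. The reference names 84 such genes, 6 of them pseudogenes, and 78 had a probe: 49 named for the large subunit and 29 for the small one. Testing required a probe whose red or green signal stood well above background on every array, which held for 77 genes and 99 of their 100 probes, out of 15759 genes tested in all. All 77 also passed when both channels were required, so none was measured in 1 genotype only. The gene left out was Mrpl21. Each gene is given by its brightest probe, and 22 genes had 2 probes.

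Cortical RNA came from male mice aged 3 months on the C57BL/6N background, either wild type or labelled Ndrg2-/-. Each of 4 two-colour Agilent arrays carried 1 knockout sample dyed with Cy5 (red) and 1 wild-type sample dyed with Cy3 (green), so genotype and dye cannot be told apart. Unless stated otherwise, values are log2 ratios, knockout divided by wild type by the labels, as mean ± SD (n = 4 arrays). The labels do not say whether samples were single animals or pools, how the allele was made, or that samples came from separate animals, so p-values measure only the spread between these samples. Genes count as called where limma's moderated test, Benjamini-Hochberg adjusted over all 27664 kept probes, gave an adjusted p below 0.05. In bulk tissue, fewer cells of a type and less RNA per cell cannot be told apart.

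The median red spot signal ran from 283 to 336 and the median green one from 94 to 122, over local backgrounds of 87 to 96 and 22 to 26. The number of arrays limits the precision. All 10 excitatory cortical neuron markers were well above background in the wild-type channel. So were all 6 tested markers of the striatum, so detection alone does not tell brain regions apart. The probe of the targeted gene, Ndrg2, read higher in the samples labelled knockout on all 4 arrays (0.11, 0.37, 0.40 and 0.38; mean 0.32 ± 0.14, limma adjusted p 0.0173). The removed stretch of the gene is not named in the labels, and whether samples or dyes were exchanged was not tested, so the direction of each ratio rests on the labels. The markers of the meninges, the covering of the cortex, were higher for 10 of 10 genes, with array medians of 0.58, 0.44, 0.24 and 0.68. Astrocyte markers lay above 0 for 9 of 10 genes (median 0.17, 1 called higher), and excitatory neuron markers for 8 of 10 (median 0.16, 2 called higher and 1 lower). Of all 15759 tested genes, 8644 lay above 0, and 9.12% were called higher and 5.84% lower. Markers of inhibitory neurons, oligodendrocytes, microglia and endothelium had medians of 0.03, 0.0007, -0.005 and 0.03. Of them, 1, 1, 2 and 1 were called higher and 1, 1, 0 and 0 lower. The part of these marker differences in the values below was not tested.

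The stretches of DNA shown next lie just before the starts of the genes on which the results turn. They are from RefSeq's GRCm38.p6 promoter table, on the strand of the first gene named. They are shown because Mrpl57, Mrps10 and Mrpl44 had the largest called ratios of their subunit and direction, and because the Mrpl14 and Mrpl46 starts face a gene whose ratios are given below. Where a neighbour starts on the other strand less than 250 bases away, only the stretch between both starts is shown. Capitals mark matches, on either strand, to 4 motifs: that of nuclear respiratory factor 1 (NRF1, 10 letters), CCGGAAG of the ETS family, which includes GABP, that of YY1 (11 letters) and GGGCGG of SP1.
Mrpl57 to Ska3, chr14:57826164-57826238, plus strand: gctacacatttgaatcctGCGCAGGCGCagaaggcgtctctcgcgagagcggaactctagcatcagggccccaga
Mrpl44, chr1:79775768-79776017, plus strand: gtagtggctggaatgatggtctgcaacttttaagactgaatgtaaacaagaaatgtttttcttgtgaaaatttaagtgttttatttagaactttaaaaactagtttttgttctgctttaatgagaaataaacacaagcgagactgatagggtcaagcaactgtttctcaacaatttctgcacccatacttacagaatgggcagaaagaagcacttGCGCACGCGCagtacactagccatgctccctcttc
Mrps10, chr17:47368947-47369196, plus strand: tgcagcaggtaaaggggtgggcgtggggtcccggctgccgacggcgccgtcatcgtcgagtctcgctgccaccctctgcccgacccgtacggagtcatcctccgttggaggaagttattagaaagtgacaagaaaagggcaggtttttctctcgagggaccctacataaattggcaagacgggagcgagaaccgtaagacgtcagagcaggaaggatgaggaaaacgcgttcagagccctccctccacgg
Mrpl14 to Tmem63b, chr17:45686219-45686348, plus strand: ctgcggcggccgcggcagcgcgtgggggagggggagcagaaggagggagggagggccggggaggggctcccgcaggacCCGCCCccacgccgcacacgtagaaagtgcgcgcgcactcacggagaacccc
Mrpl46 to Mrps11, chr7:78783090-78783130, minus strand: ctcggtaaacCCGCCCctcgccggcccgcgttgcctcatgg
The NRF1 match starts 57 bases before the Mrpl57 start and 35 bases before the Mrpl44 start. The former gene had the lowest and the latter the highest mean ratio of all 77 genes.

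The mitoribosomal protein genes differed little between genotypes. Their mean log2 ratios ran from -0.30 to 0.20, with a median of -0.02 against 0.01 over all tested genes. The largest difference was a factor of 1.23. Of 77 genes, 4 were called higher and 10 lower, and 63 did not pass. Among all tested genes, 9.12% were called higher and 5.84% lower (15.0% in either direction), against 5.19% and 13.0% of the members (18.2% in either direction). The share called was thus near the background, while the lean to lower calls after loess was opposite to that of all genes. Without loess, with each array centred on the median of all its spots, the median of all genes rose to 0.28 and that of the members to 0.36. As a set, the members thus lay above all genes in that setting and below them with loess. That setting called 76 members higher and none lower, against 67.5% and 14.8% of all genes. The 4 genes called higher kept their sign there, and the 10 called lower turned above 0. Relative to the all-gene median of that setting, the latter lay between -0.13 (Mrps10) and -0.006 (Mrps34).

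The calls depended on each array. Leaving out replicate 1, 2, 3 or 4 left 0, 0, 0 and 2 genes called higher, and 2, 0, 3 and 6 called lower. The background shrank at the same time, to 2.77%, 2.04%, 3.57% and 6.07% of all genes higher and 1.33%, 0.831%, 1.53% and 3.73% lower. With the scanner software's processed signals, 1 member was called higher and 6 lower, against 4.94% and 3.49% of all genes.

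**Figure D1:**
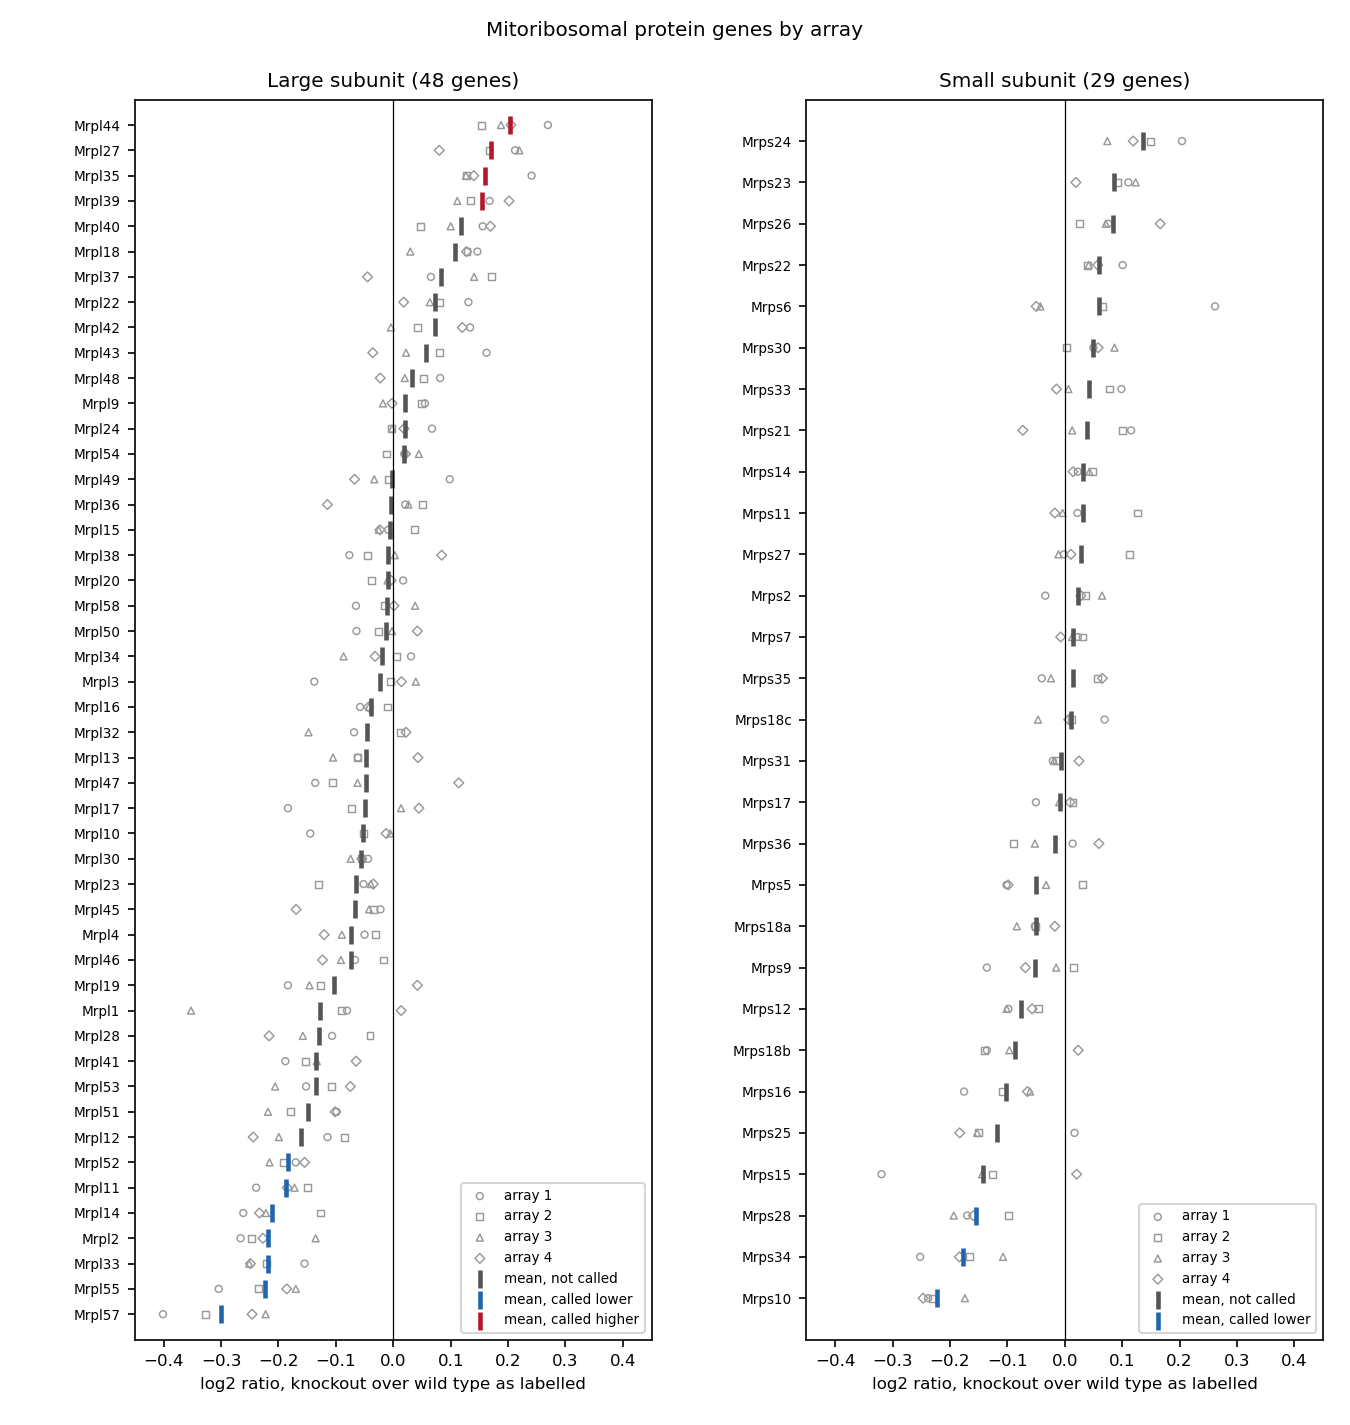
Log2 ratio of knockout over wild type (x axis) for each of the 48 large and 29 small subunit genes (rows, ordered by mean). Open symbols are the 4 arrays and bars their mean, coloured where the gene was called; means run from -0.30 for Mrpl57 to 0.20 for Mrpl44. The signs hold for loess-normalized ratios: with plain median centring all 10 genes called lower lie above 0, yet below that setting's all-gene median of 0.28.

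In the large subunit, 7 genes were called lower and 4 higher, and 37 did not pass. That is 14.6% lower and 8.33% higher, against 5.84% and 9.12% of all genes. Mrpl57 encodes a small protein that only mitochondrial ribosomes have. On arrays 1 to 4 its log2 signal was 14.05, 13.97, 13.79 and 13.98 in wild type and 13.65, 13.64, 13.56 and 13.74 in knockout samples, on a scale normalized between arrays. The genotypes did not overlap, and the lowest wild-type value stood just above the highest knockout value. The ratios were -0.40, -0.33, -0.22 and -0.25, with a mean of -0.30 ± 0.08 (95% interval -0.40 to -0.20, limma adjusted p 0.00992), which is 18.7% lower. Its call was kept in 3 of the 4 fits that leave out a replicate and lost without replicate 2 in the other.

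Mrpl55 and Mrpl2 encode homologues of bacterial ribosomal proteins; the Mrpl2 protein lies close to the site of peptide bond formation. Mrpl55 read -0.30, -0.23, -0.17 and -0.19 (mean -0.22 ± 0.06, limma adjusted p 0.0183). Mrpl2 read -0.27, -0.25, -0.14 and -0.23 (mean -0.22 ± 0.06, limma adjusted p 0.0188). Both were lower in knockout samples on every array, but their wild-type and knockout signals overlapped across arrays.

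Mrpl33 and Mrpl14 also have bacterial homologues, and the Mrpl14 protein is the docking site of the assembly factor Malsu1. Mrpl33 read -0.15, -0.22, -0.25 and -0.25 (mean -0.22 ± 0.04, limma adjusted p 0.0172). Mrpl14 read -0.26, -0.13, -0.22 and -0.23 (mean -0.21 ± 0.06, limma adjusted p 0.0206). Their signals did not overlap between genotypes.

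Mrpl11, whose protein forms the base of the stalk that recruits translation factors, read -0.24, -0.15, -0.17 and -0.18 (mean -0.19 ± 0.04, limma adjusted p 0.0241). The stalk protein gene Mrpl12, at -0.11, -0.08, -0.20 and -0.24, had a mean of -0.16 ± 0.07 and missed the threshold (limma adjusted p 0.0506). Mrpl10, another gene of the stalk, was at -0.05 ± 0.06 by its brighter and -0.15 ± 0.08 by its other probe, neither of them called.

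Of the genes called higher, Mrpl44, whose protein has a fold like that of RNase III, read 0.27, 0.15, 0.19 and 0.21 (mean 0.20 ± 0.05, limma adjusted p 0.0205), or 15.2% higher. Mrpl27 encodes the homologue of a bacterial protein that reaches into the peptidyl transferase centre and read 0.21, 0.17, 0.22 and 0.08 (mean 0.17 ± 0.06, limma adjusted p 0.0391). Its other probe, however, was at -0.05 ± 0.04, and the reference also lists an Mrpl27 pseudogene, so this value is uncertain. Mrpl39, whose protein resembles a part of threonyl-tRNA synthetase, was at 0.15 ± 0.04 (limma adjusted p 0.0409), with its other probe at 0.10 ± 0.07. Mrpl35 was at 0.16 ± 0.06 (limma adjusted p 0.0427) and read 0.24 on array 1 against 0.13 to 0.14 on the others. Mrpl35, Mrpl39 and Mrpl44 kept an overlap of wild-type and knockout signals across arrays, and Mrpl27 did not. With those processed signals, Mrpl44 alone of these 4 stayed called.

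In the small subunit, 3 genes were called lower (10.3%), 26 did not pass and limma called none higher, against 5.84% lower and 9.12% higher of all genes. At an unadjusted limma p under 0.05, 1 was higher and 6 were lower, against 3147 and 2333 of all 15759 genes. Mrps10 encodes the homologue of a bacterial protein in the head of the small subunit. It read -0.24, -0.23, -0.17 and -0.25 (mean -0.22 ± 0.03, 95% interval -0.31 to -0.13, limma adjusted p 0.0150). All 4 arrays were close to each other, while wild-type and knockout signals overlapped between arrays. Mrps34, a mitochondria-specific protein needed for a stable small subunit, read -0.25, -0.17, -0.11 and -0.18 (mean -0.18 ± 0.06, limma adjusted p 0.0333). Mrps28 read -0.17, -0.10, -0.19 and -0.16 (mean -0.16 ± 0.04, limma adjusted p 0.0408). Mrps34 and Mrps28 lost the call in every fit that left out a replicate.

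At the other end of the small subunit, Mrps24 read 0.20, 0.15, 0.07 and 0.12 (mean 0.14 ± 0.05) and missed the threshold (limma adjusted p 0.0636). Its signals did not overlap between genotypes. Mrps23 was at 0.09 ± 0.05 and Mrps26 at 0.08 ± 0.06, with intervals that included 0. The decoding-centre gene Mrps12 was at -0.08 ± 0.03 (limma adjusted p 0.210).

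The subunits were compared next, with no test, since the members were chosen with results known. The median log2 ratio was -0.04 over 48 large subunit genes and 0.01 over 29 small subunit genes, a difference of -0.05. Of the large subunit genes, 34 lay below 0 and 14 above, while the small subunit split into 14 and 15. Large subunit medians on arrays 1 to 4 were -0.06, -0.03, -0.04 and -0.02, and small subunit medians were -0.001, 0.01, -0.02 and 0.007. The large subunit was the lower one on each array, by 0.06, 0.04, 0.02 and 0.03. The mean of these differences was -0.04 ± 0.02 (SD over 4 arrays). Without replicate 1 the difference was -0.025, and without replicate 2, 3 or 4 it was -0.036, -0.042 and -0.036. The small subunit median was -0.0025 without replicate 1 and -0.0024 without replicate 4. Without loess the subunits read 0.355 and 0.357, and the difference was -0.0023. Within the large subunit, the 29 genes of bacterial descent had a median of -0.05 and the 19 mitochondria-specific ones a median of -0.01. Within the small subunit the medians were 0.001 over 16 and 0.02 over 12.

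**Figure D2:**
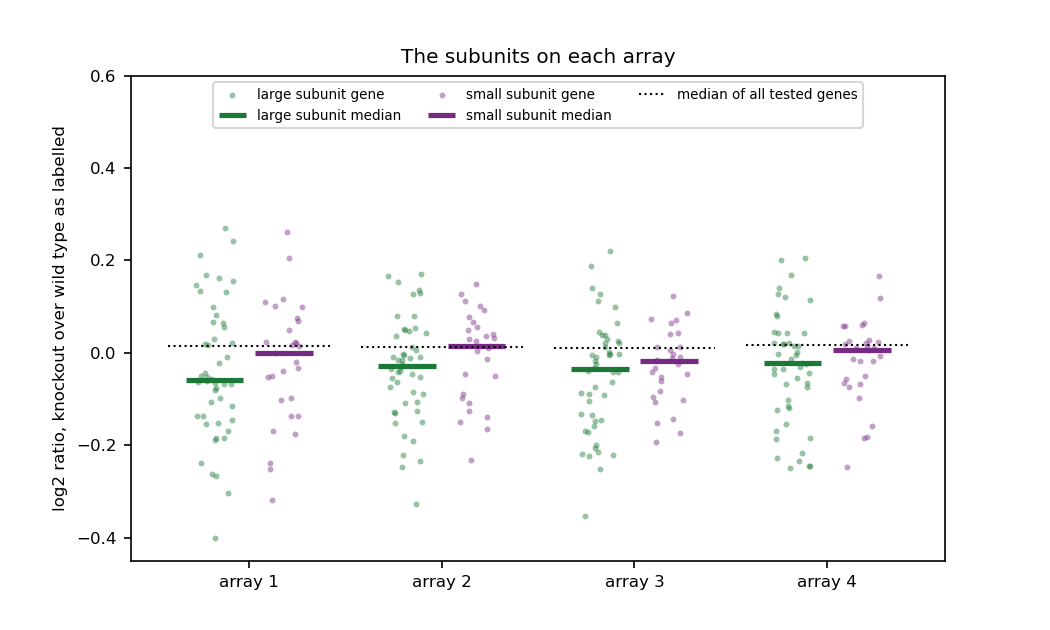
Log2 ratio (y axis) of each large (green) and small (purple) subunit gene on arrays 1 to 4, with thick bars at the subunit medians and a dotted line at the median of all tested genes. The large subunit median lies 0.02 to 0.06 below the small one on each array with loess, a gap that was -0.0023 under plain median centring.

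Subunit names do not always give the place of the protein. The Mrps18a and Mrps30 proteins sit in the large subunit of the mammalian structure, and Mrps36 is now known as part of a dehydrogenase complex. These genes were at -0.05 ± 0.03, 0.05 ± 0.03 and -0.02 ± 0.07. Sorting genes by structure gave medians of -0.04 and 0.01 over 50 and 26 genes, with a difference of -0.05.

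The ratios of the members were correlated between arrays. Pearson's r between arrays over the 77 genes ran from 0.62 (arrays 1 and 4) to 0.85 (arrays 1 and 2), and over all genes from 0.41 to 0.71. In each of the 6 array pairs r was higher over the members. Members also varied less between arrays, with a median SD of 0.055 against 0.089 over all genes. Cytosolic ribosomal protein genes had a median SD of 0.055 too, and r was not computed for them. Whether the higher r is particular to the members was thus not tested. All arrays share 1 slide, 1 scan and 1 dye orientation, and genes are not independent replicates. In sign, 25 members (32.5%) were lower on all 4 arrays and 13 (16.9%) higher, against 18.6% and 24.1% of all genes. Wild-type and knockout signals did not overlap for 11 genes that were lower (14.3%) and 2 that were higher (2.60%), against 6.25% and 9.06% of all genes. The 11 were Mrpl4, Mrpl11, Mrpl12, Mrpl14, Mrpl33, Mrpl41, Mrpl51, Mrpl52, Mrpl57, Mrps16 and Mrps28. Array 1 spread the members most, with an SD of 0.14 over genes against 0.11 on each of the others. It also spread all tested genes most, with SDs of 0.21, 0.17, 0.15 and 0.18 on arrays 1 to 4.

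Member spots were bright, with a median at percentile 79.1 of tested genes. Among 15 members in the top 10% of brightness, 5 were called lower and none higher, with a median of -0.08. Over all genes in that range, 13.8% were called higher and 9.58% lower, with a median of 0.004. Among 56 members between the 50th and 90th percentiles, 5 were lower and 3 higher (median -0.01), against 7.52% and 10.8% of all genes in that range. Of 6 dimmer members, 1 was higher and none lower by limma, against 6.85% and 3.74%. The part of brightness in these calls was not tested.

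**Figure D3:**
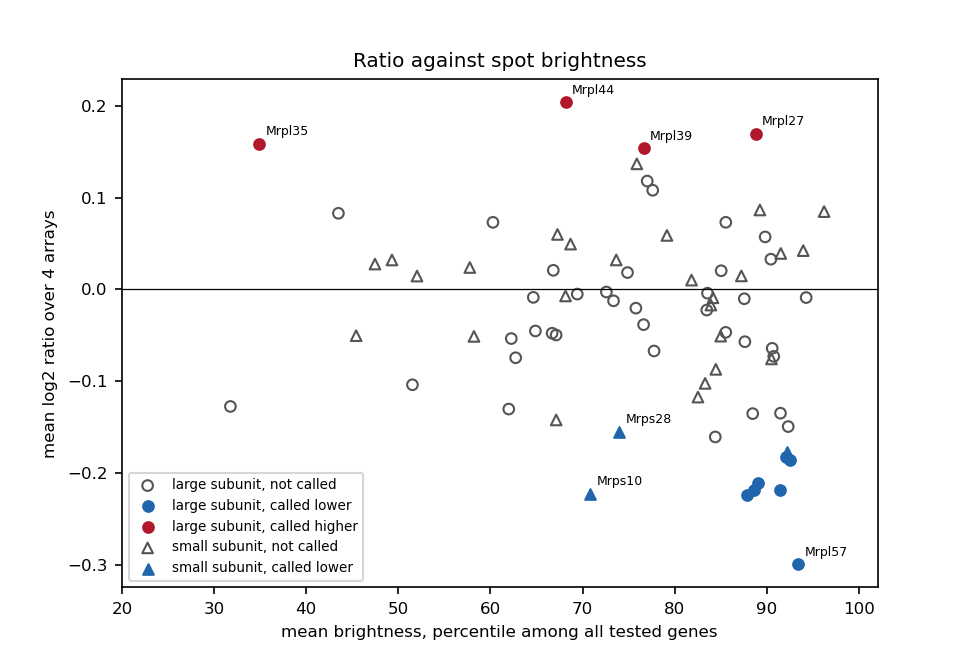
Mean log2 ratio over 4 arrays (y axis) against mean brightness as a percentile of all tested genes (x axis) for the 77 genes, circles for the large and triangles for the small subunit. Filled symbols are called genes; 5 of the 10 called lower lie above the 90th percentile, and all 4 called higher lie below it. Signs are those after loess.

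Of the 3 members on chromosome 14, which carries Ndrg2, all read lower in knockout samples after loess and above 0 under plain centring. Relative to the all-gene median of 0.28 in that setting, Mrpl52 was at -0.01 and Mrpl57 at -0.11, while Mrps16, at 0.30 before that median is taken off, was not lower. Mrpl52 lies 16 tested genes beyond Ndrg2 and Mrpl57 lies 92 beyond it, while Mrps16 is at position -184 on the same count. Mrpl52, a mitochondria-specific large subunit gene, read -0.17, -0.19, -0.22 and -0.15 (mean -0.18 ± 0.03, limma adjusted p 0.0236). Mrps16, whose protein has a bacterial homologue, read -0.18, -0.11, -0.06 and -0.07 (mean -0.10 ± 0.05) and was not called (limma adjusted p 0.130). Signals of all 3 genes were separate between genotypes. Without these genes 8 of 74 members were called lower (10.8%) and 4 higher (5.41%), against 5.84% and 9.12% of all genes. The subunit difference was then -0.04.

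Where a gene had 2 probes, they often disagreed. Of 22 such members, 12 (54.5%) had probes of opposite sign, against 38.0% of 4147 genes with 2 or more probes. The median gap between the probes was 0.12 for members and 0.09 for all genes, while called member ratios had sizes from 0.15 to 0.30. Mrpl41 was the widest case: its brighter probe was at -0.13 ± 0.05 (limma adjusted p 0.0647), without overlap between genotypes, and its dimmer one was called higher at 0.18 ± 0.10 (limma adjusted p 0.0483). For 6 genes only the dimmer probe was called. Mrpl49 (-0.23 ± 0.02) and Mrpl47 (-0.23 ± 0.04) were lower there, against -0.003 and -0.05 by the brighter probe. Mrps7 (0.19 ± 0.08) and Mrpl40 (0.18 ± 0.06) were higher there, against 0.02 and 0.12. The Mrps36 probes gave -0.15 ± 0.02 and -0.02 ± 0.07, and the reference lists Mrps36 pseudogenes. No gene had both probes called.

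The other pairs of opposite sign were smaller. Mrps25 was at -0.12 by the brighter and 0.04 by the other probe, Mrpl4 at -0.07 and 0.07, Mrpl43 at 0.06 and -0.11, Mrps33 at 0.04 and -0.10, and Mrpl15 at -0.005 and 0.13. Mrpl22 (0.07 and -0.01), Mrps23 (0.09 and -0.02), Mrps26 (0.08 and -0.03), Mrpl50 (-0.01 and 0.03) and Mrps17 (-0.009 and 0.02) each had a probe near 0. By probe, 7 of 99 member probes were called higher and 13 lower, against 7.41% and 5.54% of all kept probes.

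**Figure D4:**
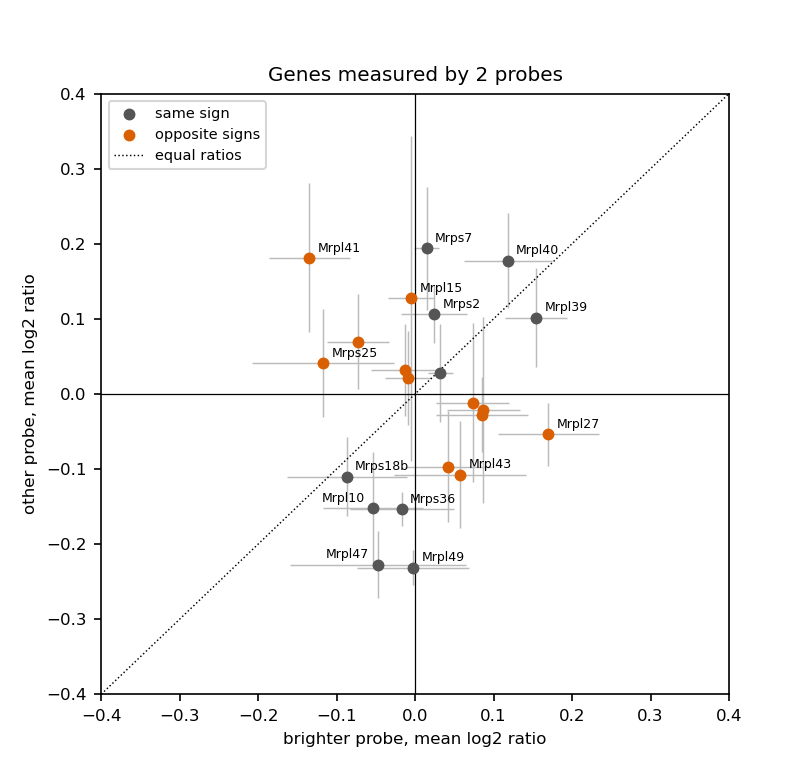
Mean log2 ratio of the brighter probe (x axis) against the other probe (y axis) for the 22 genes with 2 probes, with bars of 1 SD over 4 arrays. The 12 genes in orange have probes of opposite sign after loess, and few genes lie near the dotted line of equal ratios.

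Promoters were examined over 68 members with an entry in the RefSeq table, from 250 bases before to 50 after each start, and on both strands. NRF1 and GABP are known activators of mitochondrial protein genes. The ETS motif was present in 36.8% of members and 16.6% of 12500 tested genes with an entry, the NRF1 motif in 19.1% and 9.57%, the YY1 motif in 10.3% and 2.28%, and the SP1 motif in 34 of 68 members and 62.5% of tested genes. Among 60 cytosolic ribosomal protein genes, the ETS motif was present in 41.7%, NRF1 in 8.33%, YY1 in 1.67% and SP1 in 58.3%. The NRF1 motif was found in 10 of 42 large and 3 of 26 small subunit genes, and the YY1 motif in 3 and 4. Median ratios were -0.05 with and -0.01 without the NRF1 motif, -0.01 with and -0.02 without the ETS motif, and 0.05 with (7 genes) and -0.02 without the YY1 motif. For NRF1 the subunits differed in direction. The large one had medians of -0.05 with and -0.02 without it, and the small one 0.04 with (3 genes) and 0.01 without. Genes with the NRF1 motif included both Mrpl57 and Mrpl14, which were lower, and Mrpl44 and Mrpl39, which were higher. A match of letters is a description and shows no binding.

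Many members start head to head with another gene. An opposite start lay within 1000 bases for 25 of the 68 members (36.8%), against 17.1% of tested genes with an entry. Of 23 such pairings with a tested partner, counted once from each member, the ratios had the same sign in 9 and opposite signs in 14. Mrpl14 and Tmem63b, whose protein is an ion channel of the TMEM63 family, start 131 bases apart and were both called lower (-0.21 ± 0.06 and -0.24 ± 0.10); the pair was singled out after its values were seen. Ska3, which faces Mrpl57 at 76 bases and encodes a protein of the kinetochore, was at -0.02 ± 0.08. Mrpl46 and Mrps11, 1 gene of each subunit, start 42 bases apart and were at -0.07 ± 0.05 and 0.03 ± 0.07, neither of them called. Sars2, the mitochondrial seryl-tRNA synthetase gene that faces Mrps12, was called higher (0.18 ± 0.09, limma adjusted p 0.0426), and so was Gga3, which faces Mrps7.

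In the rest of the mitochondrial translation pathway, the share of genes called in either direction ran from 6.06% (import) to 20% (1 of 5 other mitoribosomal proteins), against 15.0% of all genes. Of 5 mitoribosomal protein genes with other names, Aurkaip1 was called lower (-0.19 ± 0.05, limma adjusted p 0.0269), and the other 4 were not called; Chchd1 was at -0.14 ± 0.03 and Dap3 at -0.006 ± 0.02. Of 27 assembly factor genes, 2 were called higher, Ybey (0.27 ± 0.15) and Trmt2b (0.17 ± 0.05), and 2 lower, Mettl17 (-0.22 ± 0.14) and Ngrn (-0.18 ± 0.02). Among 18 translation factor and mRNA-handling genes, which include the member Mrpl58, Lrpprc was called higher (0.22 ± 0.06, limma adjusted p 0.0183) and Slirp lower (-0.20 ± 0.08, limma adjusted p 0.0302). Their proteins form 1 complex that keeps mitochondrial mRNAs stable. Lrpprc read 0.28, 0.15, 0.23 and 0.22 and Slirp -0.10, -0.18, -0.23 and -0.28, so they had opposite signs on all 4 arrays.

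Among 22 genes, mitochondrial tRNA synthetase genes together with the amidotransferase genes Gatb, Gatc and Qrsl1, Sars2 was higher and Pars2 lower (-0.37 ± 0.22, limma adjusted p 0.0249). Of 20 genes that copy or transcribe mitochondrial DNA or process its RNA, the RNA polymerase gene Polrmt (0.20 ± 0.04) and the DNA polymerase subunit gene Polg2 (0.23 ± 0.05) were higher and the topoisomerase gene Top1mt lower (-0.23 ± 0.13). Of 33 protein import genes, Timm13 (-0.28 ± 0.03, limma adjusted p 0.0068) and Timm8b (-0.16 ± 0.009), both small chaperones of the intermembrane space, were lower and none was higher by limma. Of 13 regulator genes, Gabpb1, the beta chain of GABP (0.16 ± 0.03), and Hcfc1 (0.24 ± 0.13) were higher; Nrf1 was at 0.20 ± 0.18 and was not called. List medians lay between -0.10 for the 5 other mitoribosomal proteins and 0.03 for the regulators, against 0.01 for all genes.

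For comparison, 10 of 81 cytosolic ribosomal protein genes (12.3%) were called higher and 4 (4.94%) lower, near the 9.12% and 5.84% of all genes, with a median of 0.03 and array medians of 0.03, -0.02, 0.02 and 0.04. The mitoribosomal genes stood at -0.04, -0.01, -0.03 and -0.01. The cytosolic set was brighter, at a median percentile of 98.2. It also held Rpl39l, called higher with the largest ratio of the set (0.47 ± 0.23, limma adjusted p 0.0161) but dim, at percentile 0.25. The difference between the sets was not tested.

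**Figure D5:**
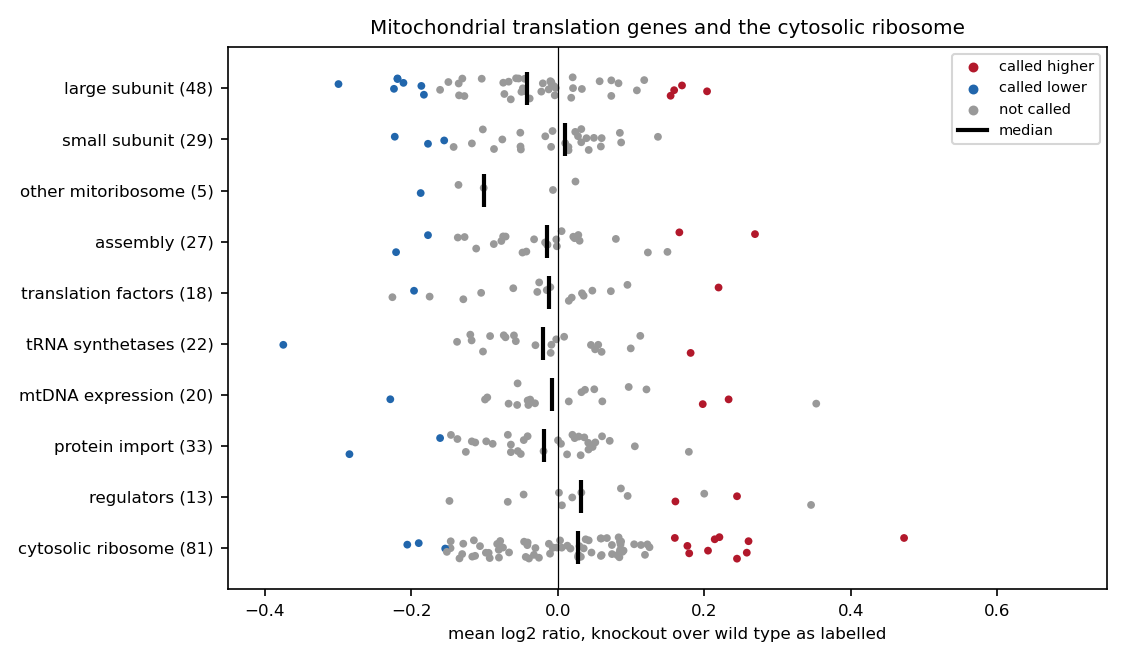
Mean log2 ratio over 4 arrays (x axis) of each gene in the 2 subunits, 7 lists of the mitochondrial translation pathway and the cytosolic ribosome (rows, number of genes in brackets), with black bars at list medians. Red and blue points are genes called higher and lower after loess; medians lie between -0.10 and 0.03.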

How the data were processed

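Cortical RNA of 4 knockout and 4 wild-type samples was measured on 4 two-colour Agilent arrays, which share 1 slide and 1 scan per the file headers. The authors extracted images with Agilent Feature Extraction (the submitters' processing notes name 10.7.3.1 and the headers 11.0.1.1). Each deposited file gives, per the file headers, every spot's median pixel intensity, its processed signal, and the log10 value of red divided by green. The deposited log2 table holds the log2 ratio of red over green processed signal, not centred further, with column medians of 0.04, 0.03, -0.04 and -0.04; it matched each array's own processed ratio (r of 1.00).

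Ratios were computed from that intensity in limma 3.58.1 (R 4.3.3, with version 1.17.8 of the data.table package): normexp background correction with offset 50, then loess with the 1377 control spots at weight 0. Each array held 43020 further spots; 802 with an outlier flag were dropped in all, and none was saturated. Replicate spots were averaged, leaving 39429 probes, of which 27664 were kept; 20764 of these had a symbol in the GRCm38.p6 gene table. An intercept-only limma model gave mean ratios (residual df 3, prior df 4.47). The ratio within an array pairs the samples of 1 replicate number. Signals per genotype were taken after a further quantile step between arrays. The fit was checked on simulated ratios with known changes.

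Members and lists were chosen with earlier results of these data known. Genes are named where called, on chromosome 14, at the 3 highest or lowest ranks of a subunit, or with probes of opposite sign, and up to 4 called genes per related list; genes added for a role or a facing start were chosen after their values were seen.

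Alternatives were processed signals, no background subtraction, median centring, both dim-probe filters, the mean of all probes, the deposited table, no pairing, leaving out each replicate, subunits by structure and leaving out chromosome 14. The array annotation uses mm9, so coordinates are given only for RefSeq sequences.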

Additional observations from a re-analysis of the deposited data

Results flagged for a closer look

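Among 31 results over 4 arrays examined for a single array far from the others, 2 stood out, where chance alone gives about 1 in 20. For Mrpl35 the gap between array 1 (0.24) and the next array made up 0.881 of the whole range, above Dixon's critical value for 4 samples. For Mrps25 array 1 (0.02) stood apart from the others (-0.15 to -0.18), with a gap of 0.835 of the range.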

How the results depend on the processing

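Against 4 members called higher and 10 lower, processed signals and the deposited table each gave 1 and 6, no filter on dim probes gave 2 genes higher, and leaving out 1 replicate gave 0 to 2 higher and 0 to 6 lower. With processed signals or the deposited table, 4.94% of all genes were higher and 3.49% lower. Without the filter 6.24% and 3.83% were, and 11 of the 14 calls were kept. Replicate numbers pair the samples through their shared array. Without the replicate block the counts were 0 and 2, against 2.87% and 1.38% of all genes, and 2 of the 14 called genes kept their call. Of those 14 genes, 13 kept the call without background subtraction, 14 with both channels required, 12 with the mean of all probes and 7 with processed signals.

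Without loess, median centring gave 76 genes higher and 0 lower, with medians of 0.355 (large subunit) and 0.357 (small subunit) and a difference of -0.0023. Median centring over kept probes, chosen after seeing the data, gave 43 and 1, with medians of 0.136 and 0.138 and a difference of -0.0023; there 35.7% of all genes were higher and 26.2% lower. Leaving out 1 replicate moved the subunit difference between -0.042 and -0.025, the latter without replicate 1. The first centring turned the sign of Mrpl2 (0.20), Mrpl4 (0.36), Mrpl11 (0.27), Mrpl14 (0.21), Mrpl15 (0.36), Mrpl33 (0.22), Mrpl41 (0.31), Mrpl50 (0.36), Mrpl52 (0.26), Mrpl55 (0.19), Mrpl57 (0.16), Mrps10 (0.15), Mrps16 (0.30), Mrps17 (0.39), Mrps25 (0.28), Mrps28 (0.22) and Mrps34 (0.27). The second turned Mrpl4 (0.14), Mrpl11 (0.046), Mrpl15 (0.14), Mrpl33 (0.0036), Mrpl50 (0.14), Mrpl52 (0.045), Mrps17 (0.17), Mrps28 (0.0016) and Mrps34 (0.052). The all-gene median was 0.28 in the first and 0.06 in the second, and the member median was above it in both (0.36 and 0.14). Relative to the all-gene median, all 10 genes called lower lay between -0.13 and -0.006 in the first, and the 4 called higher stayed higher. All tested members were well above background in both channels.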
